A study of Homo sapiens with 13 samples.

Results

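Keratins and keratin-associated proteins are described here in hFOB 1.19, an immortalized human fetal osteoblast line, through 7 of the 43836 genes counted: KRT7, KRT8, KRT18, KRT19, KRT34, KRTAP2-3 and KRTAP1-5. They were the rows whose Ensembl identifier mapped to these symbols, and the set was chosen by the KRTAP2-3 reads of serum-grown against serum-free cells, which had appeared in serum-grown cells only. Because the serum contrast chose the genes, values in it are given as a description with no test. RNA from 5 groups was sequenced. The positive control was grown with 10% fetal bovine serum (FBS) plus DMSO vehicle (2 libraries), and the negative control without serum plus the same vehicle (2 libraries). The other groups were serum-starved cells given 1 µg/mL of resveratrol, a grape stilbene (RES, 3 libraries), peonidin-3-O-glucoside, an anthocyanin (POG, 3 libraries), or the treatment labelled DEG (2 libraries in the table). The labels do not spell out DEG, and the protocol names delphinidin-3-glucoside beside the other two compounds. All groups are the same line. The study's methods describe replicate wells for RES and POG, but the labels do not tie libraries to wells or cultures, so p-values measure only the spread between these libraries, which may be technical.

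Keratins are intermediate filament proteins that polymerize as pairs of 1 type I and 1 type II chain. KRT8 (type II) and KRT18 (type I) form the pair of simple epithelia, KRT7 and KRT19 are the further type II and type I chains of ductal and glandular epithelia, and KRT34 is a type I hair keratin. Keratin-associated proteins such as KRTAP2-3 and KRTAP1-5 are cysteine-rich or glycine-rich proteins that crosslink hair keratins in the hair shaft. Osteoblasts are mesenchymal cells whose main cytoplasmic intermediate filament is vimentin (VIM), although many mesenchymal lines in culture carry some KRT8 and KRT18.

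All 7 genes lie in the keratin clusters of chromosomes 12 and 17 (hg38, GENCODE v44). On chromosome 17, all on the minus strand, were KRTAP1-5 (chr17:41026026-41027208), KRTAP2-3 (chr17:41059240-41060114), KRT34 (chr17:41377669-41382306) and KRT19 (chr17:41523617-41528308). On chromosome 12 were KRT7 (chr12:52232520-52252186, plus strand), KRT8 (chr12:52897187-52949954, minus strand) and KRT18 (chr12:52948871-52952906, plus strand). KRT8 and KRT18 are neighbors whose annotated ends overlap on opposite strands. KRTAP2-3 and KRTAP1-5 are each annotated as a single exon.

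RefSeq promoters (GRCh38.p14) were found for 4 of the 7 genes: KRTAP2-3, KRTAP1-5, KRT34 and KRT8. The 250 bases before the transcript start are printed 5′ to 3′ on the gene's own strand, because the hair-type genes shared a feature there. Capitals mark TATAAA, the TATA box letters, which place the start of transcription in many strongly regulated genes.
KRTAP2-3, chr17:41060115-41060364: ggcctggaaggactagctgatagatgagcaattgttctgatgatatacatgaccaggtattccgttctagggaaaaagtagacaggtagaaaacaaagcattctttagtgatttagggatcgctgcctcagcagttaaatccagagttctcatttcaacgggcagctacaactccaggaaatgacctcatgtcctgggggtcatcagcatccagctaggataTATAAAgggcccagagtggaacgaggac
KRTAP1-5, chr17:41027209-41027458: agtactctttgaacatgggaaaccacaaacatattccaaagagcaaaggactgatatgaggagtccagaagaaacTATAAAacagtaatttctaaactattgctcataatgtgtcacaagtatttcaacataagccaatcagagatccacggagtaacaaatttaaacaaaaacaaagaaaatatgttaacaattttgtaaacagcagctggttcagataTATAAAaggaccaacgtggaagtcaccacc
KRT34, chr17:41382307-41382556: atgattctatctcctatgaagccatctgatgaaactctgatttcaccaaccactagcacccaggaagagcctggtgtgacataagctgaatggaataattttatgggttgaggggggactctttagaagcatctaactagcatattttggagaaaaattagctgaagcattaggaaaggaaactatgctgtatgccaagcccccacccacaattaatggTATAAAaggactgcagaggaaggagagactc
KRT8, chr12:52926470-52926719: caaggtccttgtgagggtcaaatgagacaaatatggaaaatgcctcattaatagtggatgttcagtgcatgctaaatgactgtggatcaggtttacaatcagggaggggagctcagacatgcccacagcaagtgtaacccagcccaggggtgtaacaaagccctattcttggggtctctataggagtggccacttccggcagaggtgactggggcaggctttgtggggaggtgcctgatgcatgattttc
TATAAA stood 28 to 23 bases before the start in KRTAP2-3, 30 to 25 bases in KRTAP1-5, which had another copy at 175 to 170 bases, and 31 to 26 bases in KRT34. KRT8 had none in this window, which lies inside the annotated KRT8 span and so stands before only 1 of its starts. Windows before its other starts were not searched. Over 35116 RefSeq promoters of the same length, searched on both strands, 10.7% held TATAAA. The letters of 4 further sites were searched the same way: the TEAD site GGAATG (in 11.9% of promoters), the AP-1 site TGANTCA (6.57%), the SP1 site GGGCGG (42.6%) and the CArG box of serum response factor (1.16%). None of them occurred in the 4 windows printed.

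The count table held 38464619 to 51416358 reads per library, and mitochondrial genes took 3.03 to 3.91% of them. The largest and the smallest libraries were positive control replicate 1 and DEG replicate 1. Of 16 osteoblast markers, 13 passed the expression filter and their levels were uneven. COL1A1, the main bone collagen chain, stood at 2676 CPM (reads scaled by library size), SPARC, a bone matrix glycoprotein, at 1071 CPM and RUNX2, the osteoblast master regulator, at 47.8 CPM on average over the 12 libraries. Several other markers of the list were low or absent: ALPL stood at 4.54 CPM, SPP1 at 1.64, BGLAP at 1.25 and SP7 at 0.101 CPM, with 1 read of IBSP and 0 of MEPE in all. CPM were scaled by the trimmed mean of M values (TMM) throughout.

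KRTAP2-3 had reads in both serum libraries, 118 and 62, or 2.39 and 1.47 CPM. The negative control, POG and DEG libraries held none. Of the 3 RES libraries, replicate 1 had 0, replicate 2 had 7 and replicate 3 had 1. The serum libraries stood above all others, but the 8 RES reads go against calling the gene present with serum alone. Pooled over each group, the level was 1.97 CPM with serum (95% exact Poisson interval 1.69 to 2.27) and 0.0598 CPM with RES (0.0258 to 0.118). A count of 0 gave a floor of 0.0382 CPM in the negative control, 0.0221 CPM with POG and 0.0385 CPM with DEG, taken as 3 reads over the group. The same kind of exact interval as above, which is two-sided and therefore wider, reached 0.0470, 0.0272 and 0.0473 CPM in these 3 groups. Such intervals and floors cover counting error only. The gene passed the expression filter through the serum group.

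KRTAP1-5 was the sparsest member, with 12 reads in all, and did not pass the filter. Its reads numbered 5 and 3 with serum and 0 and 0 in the negative control. RES replicate 3 and POG replicate 3 had 1 read each, and DEG replicate 2 had 2. The pooled level was 0.0873 CPM with serum (0.0377 to 0.172), and this interval overlapped that of every other group. Those were 0 to 0.0470 CPM in the negative control, 0.000189 to 0.0416 with RES, 0.000187 to 0.0411 with POG and 0.00310 to 0.0926 with DEG.

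Part of the KRTAP2-3 count could have come from its copies, or been lost to them, since 214 of its 726 windows of 150 bases (29.5%) also occurred in a transcript of KRTAP2-1, KRTAP2-2 or KRTAP2-4. Over the whole transcript, KRTAP2-3 was 66.9 to 71.5% identical to these 3 genes. Their promoters were less alike, at 48.5 to 52.6% identity, against 47.6% for the promoter of KRTAP1-5. All 3 held TATAAA, at 43 to 38 bases before the start in KRTAP2-1, 73 to 68 in KRTAP2-2 and 58 to 53 in KRTAP2-4. In KRTAP2-3 the site stood at 28 to 23 bases, so the windows compared were offset from one another. The 3 copies had 0 reads in all 12 libraries. KRTAP1-5 shared no window with another gene. Of the other 92 KRTAP genes, 15 had a read and none passed the filter. KRTAP4-8, singled out after its values were seen, had 8 and 4 reads with serum and 0 elsewhere. KRTAP5-9 led the other 92 genes with 25 reads, of which the serum libraries held 1, RES 10 and DEG 9.

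**Figure D1:**
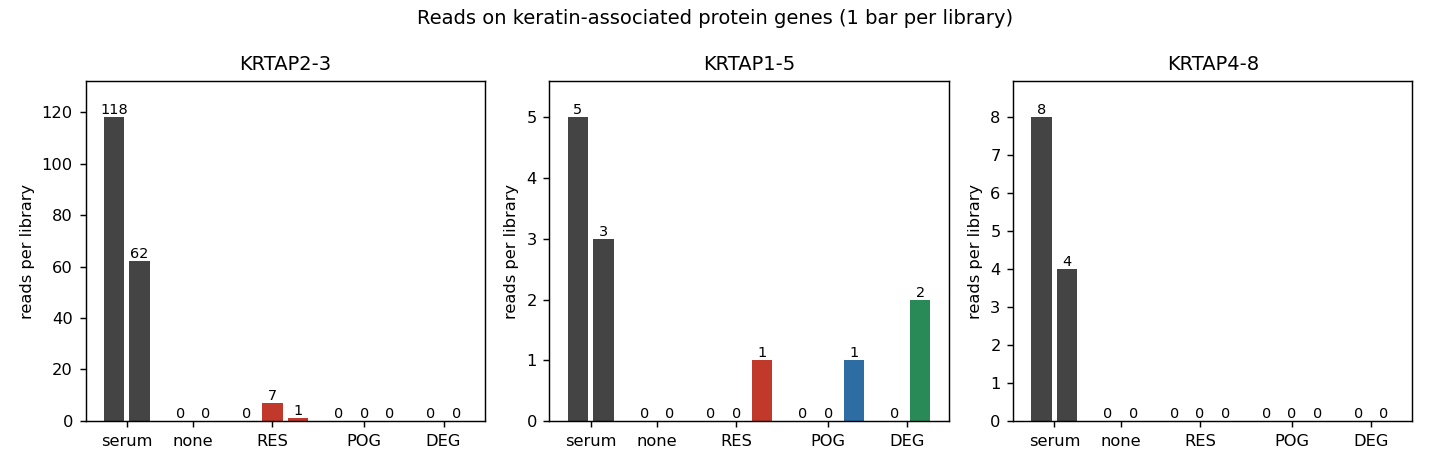
Reads (vertical axis, own scale in each panel) of KRTAP2-3, KRTAP1-5 and KRTAP4-8, with 1 bar per library by group (serum: positive control; none: negative control). KRTAP2-3 had 118 and 62 reads with serum, 7 and 1 in the RES libraries that had any, and 0 elsewhere.

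Among the keratins, KRT18 and KRT8 had the highest levels. Compared per length, as CPM per kilobase of merged exons averaged over the 12 libraries, KRT18 stood at 60.4, KRT8 at 32.0, KRT7 at 19.9, KRT34 at 5.58 and KRT19 at 1.17. KRTAP2-3 (0.384) and KRTAP1-5 (0.0188) were far lower. The order of the genes was the same per length of the longest transcript, with KRT18 at 88.8, KRT8 at 76.9 and KRT7 at 48.9. Keratin RNA was a small part of the whole: all keratin genes together took 0.0445 to 0.0670% of the reads as group means, and VIM alone stood at 2065 CPM in the negative control.

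Serum-grown cells had the highest KRT7 of the 5 groups. KRT7 stood at 156 and 148 CPM with serum, 76.5 and 74.0 CPM in the negative control, 79.4, 80.9 and 79.7 CPM with RES, 49.2, 49.96 and 51.3 CPM with POG and 55.7 and 53.3 CPM with DEG. No 2 neighboring groups overlapped in the order serum, RES, negative control, DEG, POG. The mean with serum was 2.02 times that of the negative control (152 ± 5.37 against 75.3 ± 1.79 CPM, SD, n = 2 each).

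KRT8 followed the same order with smaller steps. It stood at 285 and 261 CPM with serum, 213 and 216 CPM in the negative control, 239, 242 and 244 CPM with RES, 184, 187 and 181 CPM with POG and 194 and 195 CPM with DEG. Again no neighboring groups overlapped, and serum was 1.27 times the negative control. KRT18, its partner, stood at 220 and 202 CPM with serum, 184 and 189 CPM in the negative control, 203, 203 and 210 CPM with RES, 153, 160.0 and 157 CPM with POG and 170 and 174 CPM with DEG. The order was that of KRT8, serum and RES overlapped, and serum was 1.13 times the negative control.

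KRT34 and KRT19 were highest with RES. KRT34 stood at 9.33 and 8.46 CPM with serum, 7.95 and 9.81 CPM in the negative control, 11.8, 12.3 and 11.3 CPM with RES, 7.06, 8.14 and 6.95 CPM with POG and 8.37 and 7.96 CPM with DEG. The RES libraries lay above all others, while the other groups overlapped their neighbors in the order. Serum and the negative control had nearly the same KRT34 mean (ratio 1.00). KRT19 had the fewest reads of the keratin members, 83 to 190 per library. It stood at 2.65 and 3.32 CPM with serum, 2.63 and 2.09 CPM in the negative control, 4.26, 2.79 and 4.04 CPM with RES, 2.26, 2.11 and 1.96 CPM with POG and 2.43 and 2.21 CPM with DEG. RES and serum overlapped, as did the negative control with DEG and DEG with POG.

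**Figure D2:**
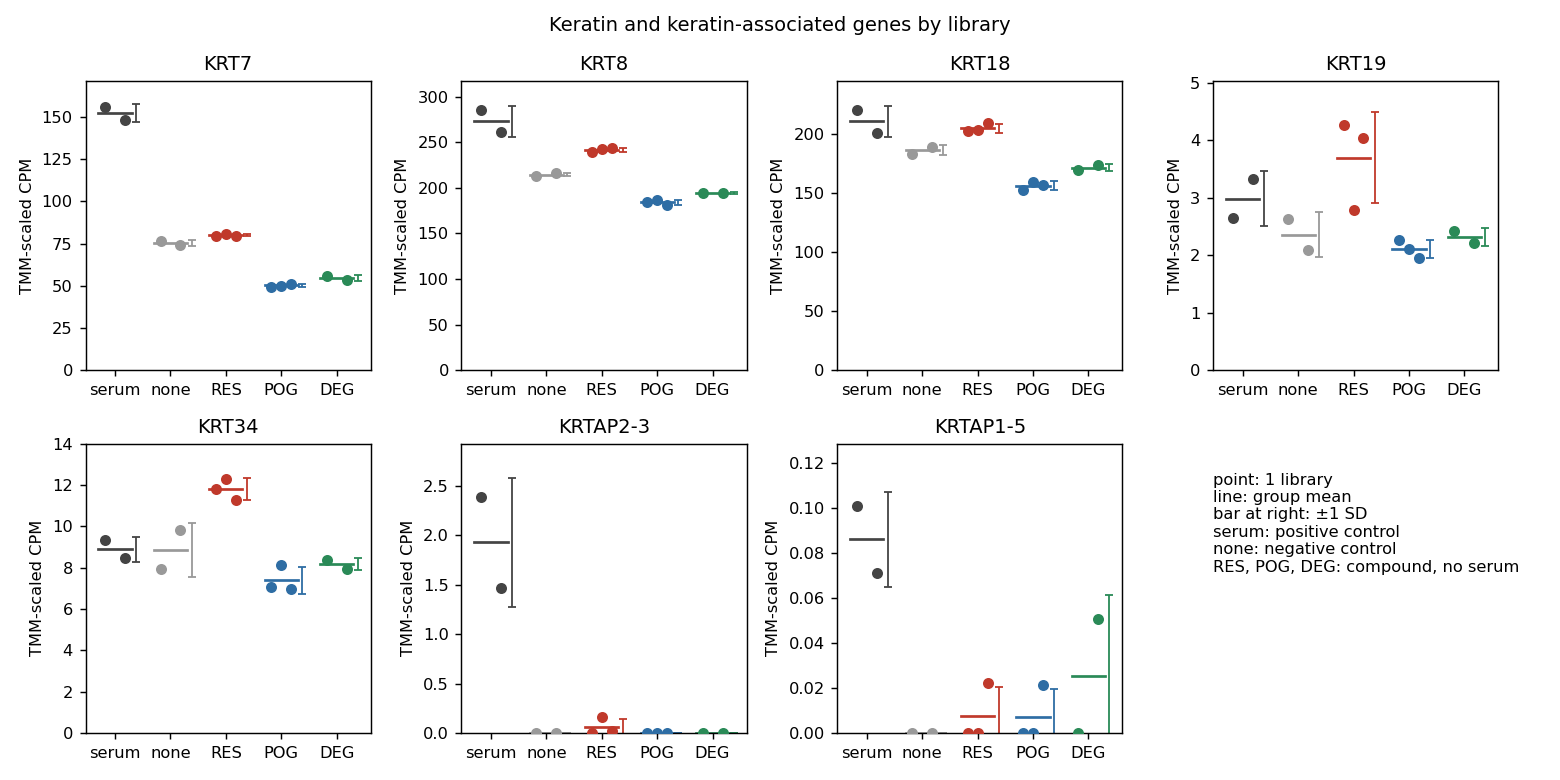
TMM-scaled CPM of the 7 members (points: single libraries; lines: group means; bars at the right: 1 SD either way, cut at 0; serum: positive control; none: negative control). KRT7, KRT8 and KRT18 run from highest with serum to lowest with POG, KRT34 is highest with RES, and KRTAP2-3 has 2.39 and 1.47 CPM with serum.

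The first question the compounds raise is whether they moved these keratins in serum-starved cells. RES raised 4 of the 5 tested members and lowered none, against 11.2% of all 17092 tested genes called, 4.94% higher and 6.21% lower. Tests were edgeR exact tests with Benjamini-Hochberg adjustment (FDR) over all tested genes, and standard errors (SE) and 95% intervals came from edgeR's quasi-likelihood fit. KRT19 rose by 0.65 log2 units (SE 0.181, FDR 0.00719) and KRT34 by 0.41 (SE 0.0970, FDR 0.000755). KRT8 rose by 0.17 (SE 0.0333, FDR 0.000145) and KRT18 by 0.14 (SE 0.0355, FDR 0.00751). KRT7 had a difference of 0.09 (95% interval 0.01 to 0.17, FDR 0.182) and did not pass. The median log2 difference of the 5 genes was 0.17, against 0.00 over all genes. Without negative control replicate 1, KRT18 (FDR 0.208) and KRT34 (FDR 0.192) no longer passed. Without RES replicate 3, KRT18 (FDR 0.0636) and KRT19 (FDR 0.0523) did not, and KRT19 was also lost without negative control replicate 2 (FDR 0.250) or RES replicate 1 (FDR 0.0732). KRT8 passed in each of these fits.

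POG lowered 3 of the 5 and raised none, against 14.5% of all tested genes called, 8.57% lower and 5.93% higher. KRT7 had the largest decrease. It fell by 0.58 log2 units (SE 0.0401, FDR 7.37e-39), which is a change from 75.3 to 50.2 CPM. KRT18 fell by 0.25 (SE 0.0356, FDR 8.86e-09) and KRT8 fell by 0.22 (SE 0.0333, FDR 1.94e-07). KRT34 (-0.27, 95% interval -0.47 to -0.06, FDR 0.0562) and KRT19 (-0.16, -0.55 to 0.23, FDR 0.690) did not pass. The KRT34 value crossed the threshold without negative control replicate 1 (FDR 0.0125) or POG replicate 2 (FDR 0.0204). The median over the 5 genes was -0.25.

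DEG lowered 2 of the 5, against 9.63% of all tested genes called, 6.11% lower and 3.52% higher. KRT7 fell by 0.47 (SE 0.0446, FDR 1.01e-19) and KRT8 fell by 0.14 (SE 0.0368, FDR 0.00965). KRT18 (-0.12, 95% interval -0.20 to -0.04, FDR 0.0596), KRT34 (-0.12, -0.35 to 0.11, FDR 0.614) and KRT19 (-0.02, -0.46 to 0.41, FDR 1) did not pass. KRT8 was lost when any library of the comparison was left out: negative control replicate 1 (FDR 0.0625), negative control replicate 2 (0.140), DEG replicate 1 (0.123) or DEG replicate 2 (0.0892). KRT7 passed in each of those fits. With 2 libraries against 2, this comparison was the least precise of the 3, which all share the negative control.

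Scaling by library totals in place of TMM shifted the split of calls over all genes while the counts of members called were the same. With RES, 844 genes were higher and 1062 lower by TMM, and 1236 and 694 by totals. With POG the split went from 1014 and 1464 to 1498 and 1179, and with DEG from 602 and 1044 to 843 and 868. The median over all genes moved by at most 0.03 log2 units.

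The compounds were next compared with one another at the same dose, in 3 pairs. All 5 tested keratins were lower with POG than with RES, against 27.9% of all tested genes called, 14.1% lower and 13.7% higher. The POG minus RES difference was -0.81 for KRT19 (SE 0.159, FDR 6.52e-06), -0.68 for KRT34 (SE 0.0863, FDR 1.74e-13), -0.67 for KRT7 (SE 0.0358, FDR 2.13e-66), and -0.39 for both KRT8 (FDR 7.09e-30) and KRT18 (FDR 1.25e-26). Every POG library lay below every RES library for all 5 genes, and all 5 calls held whichever library of the pair was left out.

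All 5 were also lower with DEG than with RES, against 21.2% of all tested genes called, 10.8% lower and 10.3% higher. KRT19 differed by -0.67 (FDR 0.00243), KRT7 by -0.55 (FDR 1.51e-34), KRT34 by -0.53 (FDR 1.93e-06), KRT8 by -0.32 (FDR 5.85e-15) and KRT18 by -0.26 (FDR 3.73e-09). The KRT19 call was lost without DEG replicate 2 (FDR 0.0773).

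Between DEG and POG no member passed, and 1.05% of all tested genes did, 0.55% higher and 0.497% lower with DEG. The DEG minus POG differences were all small and positive. They were 0.13 for KRT18 (95% interval 0.06 to 0.21, FDR 0.0630), 0.12 for KRT7 (0.03 to 0.20, FDR 0.213), 0.08 for KRT8 (0.01 to 0.15, FDR 0.433), 0.15 for KRT34 (-0.06 to 0.36, FDR 0.671) and 0.14 for KRT19 (-0.26 to 0.53, FDR 0.892). At an unadjusted p under 0.05, 3 of the 5 would be called (KRT18, KRT7 and KRT8), against 10.7% of all tested genes. DESeq2 called 1.

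**Figure D3:**
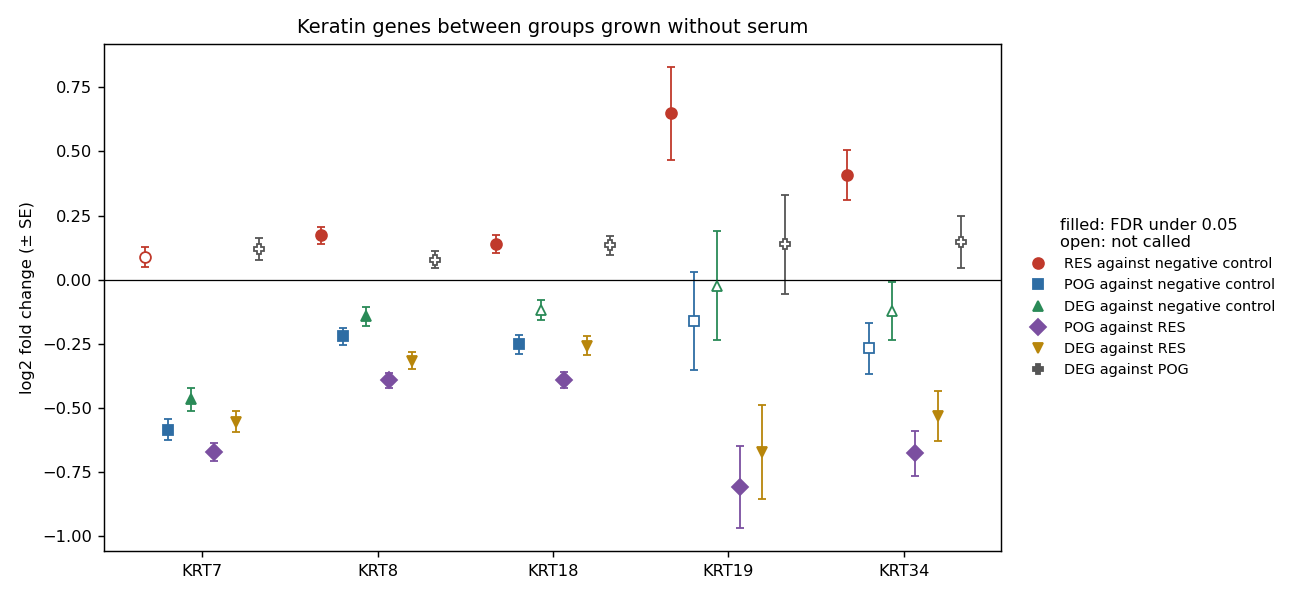
Log2 fold changes (vertical axis, with bars of 1 SE either way) of the 5 tested keratins in the 6 comparisons among serum-free groups, with filled symbols for FDR under 0.05. RES against the negative control lies between 0.09 and 0.65, POG and DEG against it lie below 0, and the largest decreases are those of POG against RES, down to -0.81 for KRT19.

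Ratios between members were also compared. The KRT8 to KRT18 read ratio, the balance of the obligate pair, stood at 1.29 with serum (both libraries), 1.15 ± 0.0146 in the negative control (SD, n = 2), 1.18 ± 0.0141 with RES (n = 3), 1.18 ± 0.0276 with POG (n = 3) and 1.13 ± 0.0146 with DEG (n = 2). Single serum-free libraries ranged from 1.12 to 1.21, and both serum libraries stood above them. The KRT7 to KRT8 read ratio stood at 0.557 with serum, 0.351 in the negative control, 0.331 with RES, 0.273 with POG and 0.280 with DEG. KRT8 and KRT18 together made up 69.7% of the keratin reads with serum and 75.0 to 77.6% in the serum-free groups. These ratios were not tested.

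**Figure D4:**
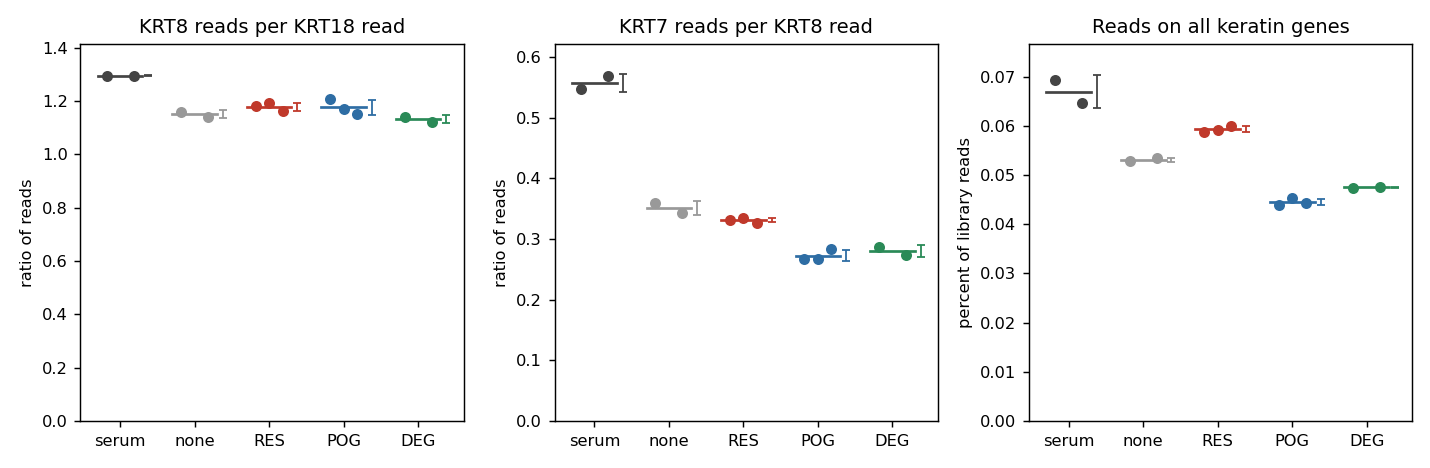
KRT8 reads per KRT18 read, KRT7 reads per KRT8 read, and the percent of library reads on all keratin genes (points: single libraries; lines: group means; bars: 1 SD either way; serum: positive control; none: negative control). The KRT7 to KRT8 ratio was 0.557 with serum and 0.273 with POG, and the keratin share was 0.0670% and 0.0445%.

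The counting limits differ by gene. Of the 150-base windows of each gene's longest transcript, KRT18 had 7.99% that also occurred in a KRT8 transcript and KRT7 had 5.22% in its antisense gene KRT7-AS. The longest transcripts of KRT8, KRT19 and KRT34 had none, so the KRT8 sequence shared with KRT18 lies in its other transcripts. KRT8, KRT18 and KRT19 have 124 pseudogenes among the rows, of which 11 passed the filter. With pseudogene counts added, the KRT8 to KRT18 ratio was 1.33 with serum and 1.18 to 1.23 in the serum-free groups. The strand setting of the counting and the treatment of reads with several matches are not given in the sources used here, so reads of KRT8 and KRT18 at their overlap, and of KRT7 and KRT7-AS, cannot be told apart.

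Of 50 other keratin genes in the table, 34 had a read and 10 passed the filter. With serum 7 of the 10 changed, 4 higher and 3 lower, against 42.4% of all tested genes, 21.4% higher and 20.9% lower. KRT81, a type II hair keratin, rose from 0.216 to 2.42 CPM (3.47 log2 units, FDR 7.93e-17). KRT15 (1.15, FDR 0.00124), a basal keratinocyte keratin, and KRT86 (0.85, FDR 0.00516), another hair keratin, also rose, as did KRT10 (0.26, FDR 0.00103), the type I keratin of the upper epidermis. KRT17, a stress-induced keratin, fell by 1.63 (FDR 9.01e-17), KRT79 fell by 1.28 (FDR 2.04e-23) and KRT4 fell by 2.73 (FDR 2.74e-08). KRT15 was lost without negative control replicate 1 (FDR 0.0872), and KRT86 without positive control replicate 1 (0.0734) or negative control replicate 2 (0.179). KRT81 shares 25.6% of its windows with KRT86, KRT86 shares 25.4% with KRT81 and an unnamed gene together, and KRT86 overlaps KRT7 on the same strand, so their counts are uncertain.

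Against the negative control, 2 of the 10 passed with RES, 1 with POG and 2 with DEG, against 11.2%, 14.5% and 9.63% of all tested genes. POG lowered KRT80, a type II epithelial keratin, from 9.51 to 3.96 CPM (it fell by 1.27, FDR 7.06e-31), and no other of the 10 passed. DEG lowered KRT80 (-0.98, FDR 4.73e-15) and KRT79 (-0.45, FDR 0.00281). RES lowered KRT79 (-0.56, FDR 5.21e-06) and raised KRT17 (0.46, FDR 0.0181). The KRT17 call was lost in DESeq2 (FDR 0.0512), without either negative control library and without RES replicate 2 or 3. The KRT79 call with DEG was lost without negative control replicate 2 (FDR 0.0899) or DEG replicate 2 (FDR 0.0609). Between DEG and POG none of the 10 passed.

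**Figure D5:**
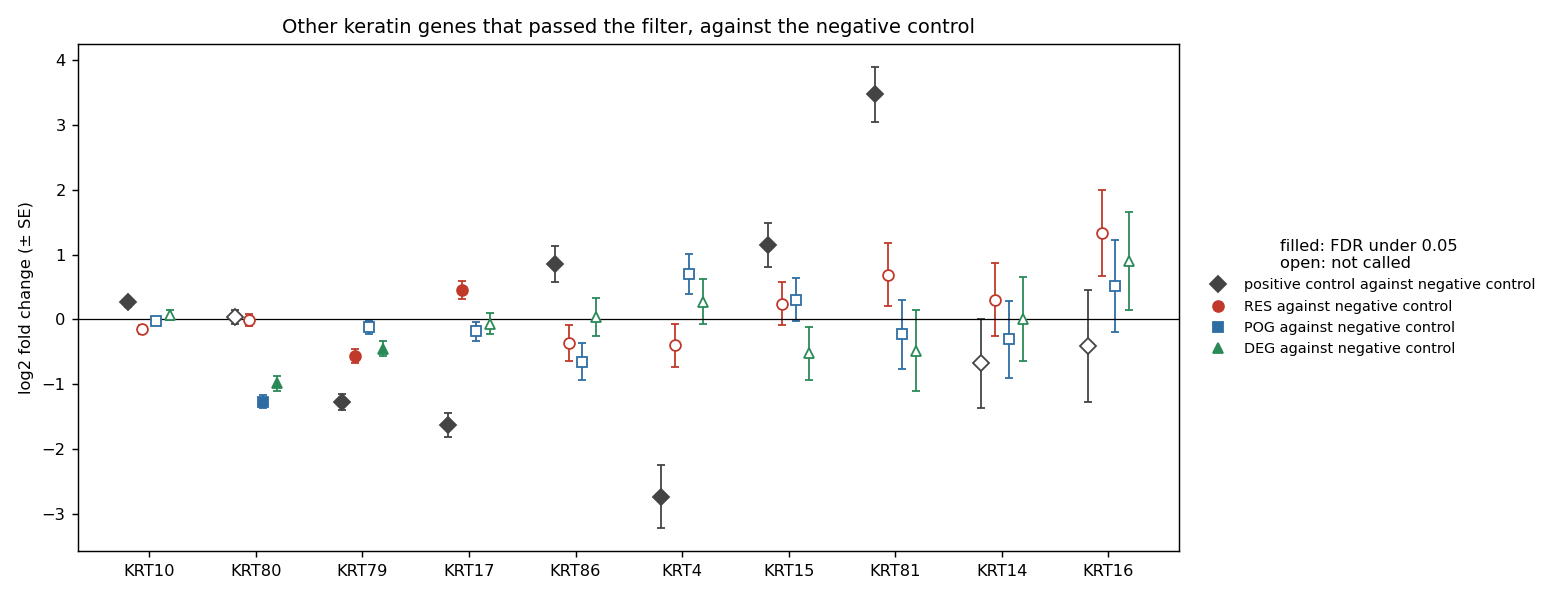
Log2 fold changes (vertical axis, with bars of 1 SE either way) of the 10 other keratins that passed the filter, for serum and each compound against the negative control, with filled symbols for FDR under 0.05. KRT81 stands at 3.47 with serum, KRT4 at -2.73 with serum, and KRT80 at -1.27 with POG.

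Markers of other cell types were read beside the keratins. In bulk RNA, fewer cells of a type and less RNA per cell cannot be told apart. Of 20 epithelial markers, 13 passed the filter, and 1 of them was called with each compound, a share of 7.69% against 11.2% (RES), 14.5% (POG) and 9.63% (DEG) of all tested genes. The POG call (ELF3) was lost whichever library was left out and in DESeq2 (FDR 0.0856), the DEG call (MARVELD2) in DESeq2 (0.0677) and without negative control replicate 1 or either DEG library, and the RES call (SPINT1) without negative control replicate 2 (0.0621). Their summed level was 113 to 116 CPM in the negative control, 129 to 131 CPM in RES libraries, 113 to 116 CPM in POG libraries, 115 to 116 CPM in DEG libraries and 91.5 to 93.9 CPM in serum libraries. EPCAM and CDH1, the defining epithelial adhesion genes, had 185 and 56 reads over all 12 libraries, and the epithelial regulators GRHL2, ESRP1 and OVOL2 had 1, 6 and 2. Other markers of the list were clearly present, and 6 of the 20 averaged at least 1 CPM. These were SPINT1 (88.4 CPM), ELF3 (7.67), MARVELD2 (4.51), CLDN4 (4.25), the regulator GRHL1 (3.91) and CLDN7 (2.27). SPINT1 made up most of each epithelial sum, at 66.3 CPM with serum, 89.9 CPM in the negative control and 101 CPM with RES. The sum was lowest with serum, as SPINT1 was, and KRT7 and KRT8 were highest there. Of the 13 tested epithelial markers, 1 was called higher with serum and 2 lower, against 21.4% and 20.9% of all tested genes. Of the 15 keratinocyte markers that could be found, 7 had no read. Their sum ranged over 33.7 to 37.7 CPM and was mostly PERP (28.5 CPM on average). Endothelial markers (7 genes, 6 tested) had sums of 58.5 to 61.8 CPM with serum, 57.8 to 65.7 with RES, 45.6 to 47.7 in the negative control, 41.2 to 41.7 with DEG and 38.6 to 40.9 with POG. TEK, the angiopoietin receptor, made up most of each sum, at 55.1 CPM with serum and 40.3 CPM in the negative control. VWF (0.299 against 2.53 CPM) and PECAM1 (1.57 against 2.29 CPM) were lower with serum. Of the 6 tested, 3 were called higher with serum and 2 lower, against 21.4% and 20.9% of all tested genes. The PECAM1 call was lost in DESeq2 (FDR 0.0794), and those of KDR and ERG without either negative control library. RES raised 2 of the 6, TEK by 0.41 (FDR 2.51e-11) and VWF from 2.53 to 4.88 CPM, against 4.94% of all tested genes. POG lowered 2 and DEG lowered 1, against 8.57% and 6.11%. The DEG call (PECAM1) was lost whichever library was left out. All 6 were lower with POG than with RES, against 14.1% of all tested genes. Of these, the CLDN5, ERG and KDR calls were lost in some fits that left out 1 library. The defining endothelial cadherin CDH5 had 16 reads over the 12 libraries. Immune markers summed to 1.09 to 2.21 CPM, with no read of CD3E. Of 13 tested osteoblast markers, RES lowered 2, POG lowered 5 and DEG lowered 5, against 6.21%, 8.57% and 6.11% of all tested genes, and no compound raised any. The paper reports higher RUNX2, SP7 and DLX5 with POG, by RNA-seq and by qPCR. Here RUNX2 (47.1 CPM in the negative control, 49.2 with POG) and DLX5 (0.864 and 1.44 CPM) did not pass. SP7 failed the expression filter and was not tested. The DEG call of SPP1 was lost whichever library was left out and in DESeq2 (FDR 0.0708), its POG call did not hold when negative control replicate 2 (0.139) or POG replicate 1 (0.0600) was removed, and the DEG call of POSTN was lost without negative control replicate 2 (0.0782). The part of these markers in the keratin results was not tested.

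Other genes were ranked by how closely their 5 group means followed each member, as the root mean square difference of centered log2 CPM over the 5 groups among 13348 genes. The nearest to KRT7 were ERG (0.0714) and TIMP3 (0.0740), to KRT8 LIMA1 (0.0101) and RBMS3 (0.0210), and to KRT18 BCL2L1 (0.0124) and TRIM8 (0.0198). HNMT (0.0403) and LINC01358 (0.0478) were nearest to KRT34, and FBN1-DT (0.0520) and SMIM10 (0.0557) to KRT19. The nearest to KRTAP2-3 were DHRS3 (0.178) and ESM1 (0.225), given as a description only, since its serum reads chose the set. Its centered value was -1.25 in each of the negative control, POG and DEG groups, where 0 reads left only the added prior count of 2. Its RES value came mostly from the 7 reads of 1 library.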

How the data were processed

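The authors sequenced polyA-selected RNA with a strand-selecting kit, aligned reads to hg38 (STAR, and BWA MEM, per their methods) and counted Ensembl genes with featureCounts; the deposited values are raw read counts. Versions, annotation release, strand setting and multi-read treatment are not given in the sources used here. The table held 12 libraries for 13 labelled samples; the third DEG sample was not analysed here. Genes passing edgeR filterByExpr by group (17092 of 43836) were tested with the edgeR 4.0.16 exact test in R 4.3.3, with TMM scaling, dispersions from all 12 libraries (common coefficient of variation 3.21%) and FDR under 0.05. The 43214 named genes were matched to symbols through GENCODE v44 and a gene table. Promoters came from RefSeq (Biopython 1.88). The members, marker lists and alternatives were chosen with earlier results of these data known. The text names the members, filtered keratins of highest CPM, list examples and the 2 nearest genes per member. Alternatives covered the test (quasi-likelihood, DESeq2 1.42.0), scaling, filter, dispersions, pseudogene counts and leaving out each library. Programs were tested on simulated data.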

Additional observations from a re-analysis of the deposited data

How the results depend on the processing

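The number of members called between DEG and POG, 0 as reported, was 1 with DESeq2, 1 with a filter of a mean of at least 1 CPM, 2 with dispersions from the compared groups and 1 with dispersions estimated without the serum libraries, an alternative chosen after seeing the data. Over all genes, the calls in this pair went from 179 of 17092 to 147 of 17092, 195 of 13406, 829 of 17092 and 661 of 17092 in the same order. KRT18 with DEG against the negative control, which did not pass as reported, passed with the 1 CPM filter (FDR 0.0478), with pseudogene counts added (0.0490) with compared-group dispersions (0.00121) and with dispersions without the serum libraries (0.000997). KRT34 with POG passed with that filter (0.0493) and with those dispersions (0.0354 and 0.0319). With those dispersions the calls over all genes also grew, from 1646 to 2566 and 2602 with DEG and from 2478 to 3614 and 3507 with POG. With the filter they were 1720 and 2536 of 13406 genes. Leaving out each library in turn gave 2 to 4 members called for RES, 3 to 4 for POG and 1 to 1 for DEG against the negative control, 5 to 5 for POG against RES, 4 to 5 for DEG against RES and 0 to 0 for DEG against POG. Over all genes, fewer were called in each of these fits than with all libraries. With pseudogene counts added, the KRT8 to KRT18 ratio moved to 1.33 (positive control), 1.20 (negative control), 1.22 (RES), 1.23 (POG) and 1.18 (DEG). Per length of the longest transcript, levels were 48.9 for KRT7, 76.9 for KRT8, 88.8 for KRT18 and 1.96 for KRT19. Differences that did not pass changed sign for KRT19 with POG without negative control replicate 1 (0.016), KRT19 with DEG without negative control replicate 1 (0.15) or DEG replicate 2 (0.042), and KRT34 with DEG without negative control replicate 2 (0.041). The ranges over the left-out libraries were -0.32 to 0.016 for KRT19 with POG, -0.18 to 0.15 for KRT19 with DEG and -0.26 to 0.041 for KRT34 with DEG. The cause of these changes was not tested. No paired analysis was possible because the labels give no replicate numbers that could tie libraries of different groups. Depth limits KRTAP1-5 and the low RES reads of KRTAP2-3, where 1 library decides the value.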

Other observations

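Of 20 linker and desmosome genes 16 were tested. With POG, 6 were lower and none higher (edgeR exact test, FDR under 0.05), against 8.57% of all tested genes lower. With DEG 3 were lower, against 6.11%, and with serum 2 were higher and 7 lower, against 21.4% and 20.9%. Of the POG calls, DSC3 was lost without either negative control library, DST without negative control replicate 1 (FDR 0.0604) and in DESeq2 (0.143), and PKP3 without negative control replicate 2 (0.497), POG replicate 1 or POG replicate 2 and in DESeq2 (0.0596). The DEG call of PLEC was lost whichever library was left out and in DESeq2 (0.0657). With serum, the PLEC call was lost without positive control replicate 1 (-0.06 log2 units), and DST ranged from -0.58 to -0.12 over the left-out libraries. The 20 genes summed to 2466 CPM in 1 serum library and 2793 CPM in the other. JUP, which encodes plakoglobin of desmosomes and adherens junctions, fell by 0.50 log2 units with POG (FDR 9.19e-35) and by 0.47 with DEG, from 175 CPM in the negative control to 124 and 127 CPM. PPL, the periplakin that ties keratins to the cell periphery, fell by 0.57 with POG (FDR 1.74e-13) and by 0.64 with DEG. With serum PPL fell by 1.61 (FDR 1.51e-75), while KRT7 was higher in the same libraries. RES raised PKP1, a plakophilin of the desmosomal plaque, by 0.45 (FDR 0.000124) and lowered DSC3, a desmosomal cadherin. Of 12 tested other intermediate filament genes, 5 were higher and 3 lower with serum, against 21.4% and 20.9% of all tested genes. The LMNA call among them was lost with scaling by library totals. VIM rose with serum from 2065 to 3036 CPM (0.56, FDR 4.44e-58), while SYNM fell from 35.1 to 23.3 CPM. With the compounds VIM had differences of 0.03 to 0.04 that did not pass (FDR 0.520 to 0.732).

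Among 10 hair keratin regulators and partners, 6 were tested. PADI3, a peptidylarginine deiminase of the hair follicle, rose with RES by 2.09 (0.336 against 0.0768 CPM, FDR 0.0135), with POG by 1.91 (0.294 CPM, FDR 0.0280), with DEG by 2.08 (0.333 CPM, FDR 0.0295) and with serum by 2.61 (FDR 0.000142), all against the same low negative control. Without negative control replicate 2 the RES (FDR 0.279), POG (0.349) and DEG (0.312) calls were lost. The POG and DEG calls were also lost in the quasi-likelihood test (0.0503 and 0.0587) and without negative control replicate 1, POG replicate 1 or 3, or DEG replicate 2, and the RES call without RES replicate 3 (0.0607). S100A3, a calcium-binding protein of the hair cuticle, rose with serum by 1.09 (FDR 2.92e-09) and was lower with POG than with RES (-0.75, FDR 9.45e-06). HOXC13 and FOXN1, the regulators of hair keratin genes, had 39 and 11 reads in all.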
